A study of Mus musculus with 6 samples.

Results

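The 10 genes for chemoattractant receptors were followed in RNA from mouse blood neutrophils, namely Cxcr2, Cxcr4, Ccr1, Ccrl2, Fpr1, Fpr2, C5ar1, C3ar1, Ltb4r1 and Ptafr. They were taken by symbol from 47561 features listed in each library, and all 10 were found. The neutrophils had been sorted by flow cytometry from peripheral blood, giving 3 control samples and 3 samples of mice treated with AVP, an agent the labels do not expand. The protocol in the labels gives 30 days for both groups. Apart from the group name both groups carry the same labels, and the sources used here name no strain, age, dose or route. The labels do not say whether each sample was a different animal. The p-values therefore speak for the spread of these samples only, which may be technical.

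Chemoattractant receptors are membrane-spanning proteins of the neutrophil surface. Most couple to inhibitory G proteins, whose beta-gamma subunits activate phosphoinositide 3-kinase and Rac and so steer the cell up a gradient of ligand. After use they are phosphorylated, bound by arrestins and internalised. The chemokine receptor CXCR2 draws neutrophils out of the bone marrow and into inflamed tissue, whereas CXCR4 holds them in the marrow and calls aged cells back. CCRL2 is an atypical member: it binds the chemoattractant chemerin, does not signal through G proteins, and is known to pair with CXCR2 on neutrophils.

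Levels are in FPKM, which counts sequenced fragments relative to transcript length and library size and so allows levels to be set side by side between genes. From the value that a single fragment adds to short pseudogenes, the depth was estimated at 14199000 to 16845000 fragments per library. That value was sought only inside a window set beforehand (92 to 132 values per library), which limited the depths that could be found. Of 12 neutrophil markers, 9 were above 0 in all 6 libraries, among them S100a8 (95287 to 121812 FPKM) and Csf3r (743 to 1144 FPKM), while Camp, Ngp and Ltf were at 0 in some, Ltf in 5. At an unadjusted p under 0.05, Retnlg (4925 to 5538 FPKM in controls, 9729 to 11050 with AVP), Ly6g (23.4 to 77.0 and 64.0 to 166) and Ngp (0 to 13.6 and 13.9 to 39.6) had higher levels. Mmp9 had lower ones (229 to 374 and 101 to 197 FPKM). None of the 11 markers tested passed over all genes, and the part of these differences in the receptor results was not tested. Transcripts of other cells were present too, and the libraries differed in them. The 14 T and NK cell markers summed to 173 FPKM in AVP replicate 3 and to 3.47 to 17.2 FPKM elsewhere, with Cd3e, Cd4 and Cd8a at 0 throughout. The 13 basophil and eosinophil markers summed to 375 FPKM in AVP replicate 1 and to 16.6 to 111 FPKM elsewhere, with Epx and Prg2 at 0 throughout. In bulk RNA, fewer cells of a type and less RNA per cell cannot be told apart.

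Of the 10 receptors, Ccrl2 and Cxcr4 were higher in every AVP library than in every control library, and Fpr2 and Ptafr were lower in every AVP library. Ccrl2 went from rank 8 or 9 of the 10 in controls to rank 1 in all 3 AVP libraries. The other receptors overlapped between the groups. A gene entered the test if it reached 1 FPKM in at least 3 libraries: 9 of the 10 receptors and 8523 features in all did so, C3ar1 being left out. Of these 9, 8 reached 1 FPKM in all 6 libraries and Ltb4r1 in 5. Groups that do not overlap were found in 4 of the 9 receptors, beside 14.0% of all genes tested: 2 were higher, beside 6.39% of all genes, and 2 lower, beside 7.63%.

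By limma, which compares group means gene by gene with variances stabilised across genes, 0 of the 9 receptors passed an adjusted p under 0.05, beside 0% of all genes tested. At an unadjusted p under 0.05, Ccrl2 and Cxcr4 were higher and Fpr2 was lower, 3 of 9 receptors. Over all genes the share was 8.47%, of which 402 genes (4.72%) had higher and 320 (3.75%) lower levels. The median fitted log2 fold change of the 9 receptors was 0.25, beside -0.04 over all 8523 genes.

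**Figure D1:**
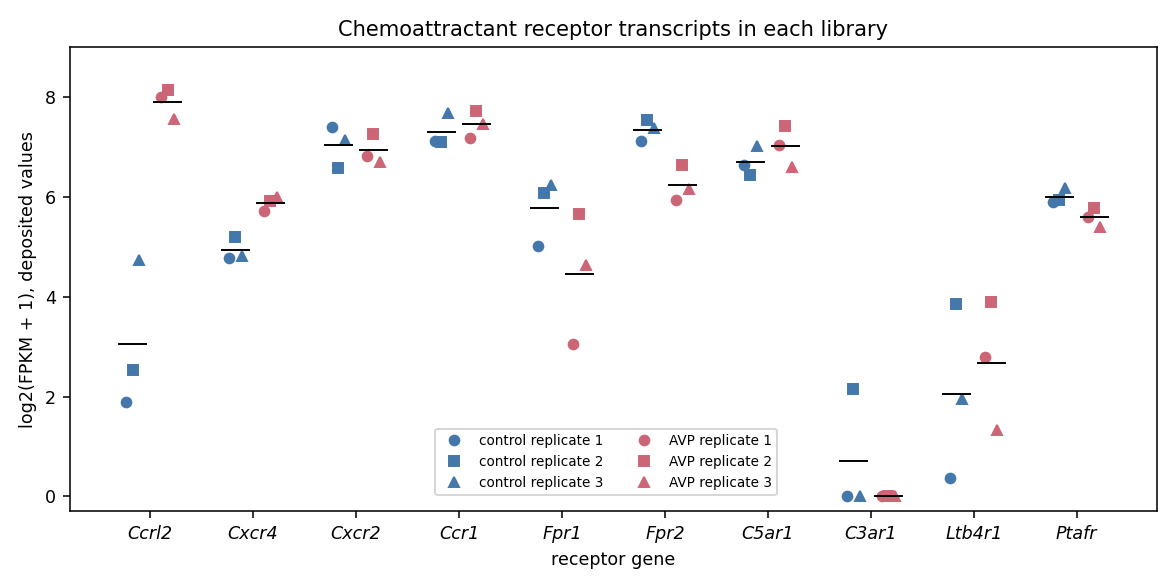
Level of each of the 10 receptor genes as log2(FPKM + 1) of the deposited values (vertical axis), with control libraries in blue, AVP libraries in red, a marker shape for each replicate number and a black line at the mean of the 3 libraries on that scale. Ccrl2 and Cxcr4 lie higher and Fpr2 and Ptafr lower in all 3 AVP libraries, and C3ar1 is above 0 only in control replicate 2.

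Ccrl2 (gene identifier 54199, chr9:111054834-111057518 in GRCm38, protein-coding) showed the largest difference of the 10. It stood at 2.73, 4.75 and 25.6 FPKM in control replicates 1 to 3 and at 254, 283 and 189 FPKM in AVP replicates 1 to 3. The lowest AVP library was 7.4-fold above the highest control library, although the controls themselves spanned 9.37-fold. Control libraries averaged 11.0 ± 12.6 FPKM and AVP libraries 242 ± 48.2 FPKM (SD, n = 3), a 22.0-fold difference of means. The fitted log2 fold change was 4.93 (SE 0.68, 95% interval 3.38 to 6.49), with an adjusted p of 0.0656 by limma over all genes. Among all features of a library, Ccrl2 ranked 1963 to 6495 by level in controls and 265 to 375 after AVP.

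Whether Ccrl2 passed depended on control replicate 3, the control library with the highest level, on the amount added before taking logs and on the filter. When only genes reaching 10 FPKM in 3 libraries were tested, 3675 in all, its adjusted p was 0.0301 by limma. Its unadjusted p by limma was then 7.35e-05, beside 8.02e-05 in the main fit. The AVP libraries alone were enough for Ccrl2 to meet that filter. Control replicate 3 also reached 10 FPKM, and control replicates 1 and 2 did not. Since the group where Ccrl2 is high admitted it, that pass is not separate support. Without control replicate 3 the log2 fold change was 5.76 and the adjusted p 0.00577 by limma. With any other library left out, the log2 fold change lay between 4.35 and 5.12 and the adjusted p between 0.185 and 0.365. Monocytes also express Ccrl2. Their 15 markers, each above 0 in at least 1 library, summed to 566, 941 and 1236 FPKM in control replicates 1 to 3 and to 943, 1203 and 252 FPKM in AVP replicates 1 to 3. On deposited values the libraries inside each group stood in the same order by this sum and by Ccrl2. After scaling of libraries, Ccrl2 was highest in AVP replicate 1. Single markers did not all keep this order, Csf1r being at 8.54, 34.6 and 13.1 FPKM in AVP replicates 1 to 3. Between the groups the sums overlapped and the Ccrl2 levels did not. The part of monocyte RNA in the Ccrl2 result was not tested.

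Within the 10 receptors, Ccrl2 made up 0.411% to 3.04% of the summed FPKM in controls and 24.7% to 31.2% after AVP. The sum of all 10 was 664, 688 and 840 FPKM in controls and 814, 1096 and 765 FPKM with AVP, so the groups overlapped. Without Ccrl2 the sum was 661 to 815 FPKM in controls and 560 to 812 FPKM with AVP. These sums overlapped too. The share of Ccrl2 was separate between the groups and the totals were not, and neither was tested.

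**Figure D2:**
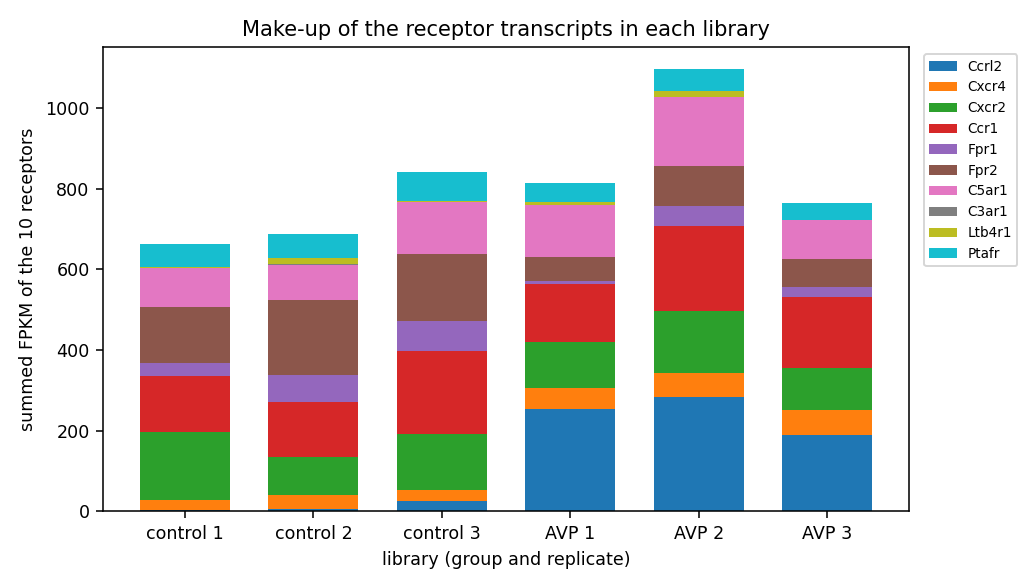
Stacked bars of the FPKM of the 10 receptors (vertical axis, from 0) in each of the 6 libraries, with a colour for each gene. Ccrl2, at the foot of each bar, takes 24.7% to 31.2% of the bar in the AVP libraries and at most 3.04% in the controls.

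Cxcr4 (gene identifier 12767, chr1:128588199-128592299) encodes the receptor for the marrow chemokine CXCL12. It stood at 26.5, 35.9 and 27.3 FPKM in control replicates 1 to 3 and at 51.9, 59.7 and 63.1 FPKM in AVP replicates 1 to 3. All AVP libraries lay above all controls, and the spread inside each group was small, 1.35-fold among controls and 1.22-fold after AVP. The means were 29.9 ± 5.23 and 58.3 ± 5.76 FPKM (SD, n = 3), and the fitted log2 fold change was 1.03 (SE 0.31, 95% interval 0.33 to 1.73, adjusted p = 0.351 by limma). Leaving out any single library gave a log2 fold change between 0.95 and 1.18. B cells also express Cxcr4. Their 12 markers, each above 0 in at least 1 library, summed to 6187, 7961 and 5061 FPKM in control replicates 1 to 3. In AVP replicates 1 to 3 the sums were 1367, 5088 and 4054 FPKM. Igkc was the largest part, at 3355 to 6228 FPKM in controls and 653 to 3300 FPKM with AVP. Of the 12 markers, 10 had a fitted log2 fold change below 0 and 2 above. Ighd, of the latter, was at 55.2, 55.4 and 79.9 FPKM in control replicates 1 to 3. It was at 92.4, 167 and 185 FPKM in AVP replicates 1 to 3. The part of B cell RNA in the Cxcr4 result was not tested.

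Cxcr2 (gene identifier 12765), the main receptor of the neutrophil-attracting CXC chemokines, stood at 168, 95.2 and 140 FPKM in the control libraries and at 113, 154 and 103 FPKM with AVP. The AVP libraries lay inside the range of the controls. Its fitted log2 fold change was -0.03 (SE 0.29), and the 95% interval ran from -0.70 to 0.65, so a difference of either sign within those bounds remains possible. Ccr1 (gene identifier 12768), which binds CCL3 and related CC chemokines, was at 138, 136 and 205 FPKM in the control libraries and at 144, 212 and 176 FPKM with AVP, also overlapping. Its log2 fold change was 0.25 (SE 0.26, 95% interval -0.34 to 0.84). It was 0.44 without control replicate 3, 0.15 without control replicate 1, 0.16 without control replicate 2 and 0.17 without AVP replicate 2.

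The formyl peptide receptors detect peptides released by bacteria and by damaged mitochondria, and FPR2 also binds annexin A1 and serum amyloid A. Fpr2 (gene identifier 14289, chr17:17887824-17893952) stood at 139, 186 and 166 FPKM in control replicates 1 to 3 and at 60.1, 98.2 and 70.7 FPKM in AVP replicates 1 to 3. All AVP libraries lay below all controls. The means were 164 ± 23.4 and 76.3 ± 19.7 FPKM (SD, n = 3), and the fitted log2 fold change was -1.03 (SE 0.26, 95% interval -1.64 to -0.42, adjusted p = 0.295 by limma). Leaving out any single library gave values between -1.17 and -0.92.

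Fpr1 (gene identifier 14293, chr17:17876471-17883939) lies 3884 bases from Fpr2 and is transcribed away from it on the other strand. It stood at 31.4, 67.0 and 74.4 FPKM in the control libraries and at 7.36, 49.6 and 24.0 FPKM with AVP. The highest AVP library lay above the lowest control, so the groups overlapped, and the AVP libraries spanned 6.74-fold. Its fitted log2 fold change was -1.25 (SE 0.64, 95% interval -2.71 to 0.22, adjusted p = 0.673 by limma). Without AVP replicate 1 it was -0.60. That library had the highest red cell marker sum, 242672 FPKM against 102758 to 154943 FPKM elsewhere. It also had the lowest B cell marker sum, 1367 FPKM against 4054 to 7961 FPKM elsewhere. Its Csf1r was lowest too, at 8.54 FPKM against 13.1 to 34.6 FPKM, while its monocyte marker sum (943 FPKM) lay within the others (252 to 1236 FPKM). The part of these differences in the Fpr1 value was not tested. Fpr1 and Fpr2 were both lowest in replicate 1 of their group, in controls and after AVP.

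The complement receptor C5ar1 (gene identifier 12273), which binds the anaphylatoxin C5a, was at 98.7, 86.2 and 128 FPKM in the control libraries and at 130, 171 and 95.9 FPKM with AVP. AVP replicate 3 lay within the controls, and the fitted log2 fold change was 0.41 (SE 0.30, 95% interval -0.28 to 1.09). It was 0.63 without AVP replicate 3 and 0.26 without AVP replicate 2. C3ar1 (gene identifier 12267), the receptor for C3a, had 3.45 FPKM in control replicate 2, and the remaining 5 libraries list it at 0. Since a listed 0 may be an estimate that failed, no fold is given for it.

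The receptors for lipid mediators were Ptafr, for platelet-activating factor, and Ltb4r1, for leukotriene B4. Ptafr (gene identifier 19204) was at 58.8, 60.3 and 71.1 FPKM in the control libraries and at 47.5, 54.1 and 41.0 FPKM with AVP. All 3 AVP libraries were lower than all 3 controls, by a small margin. The fitted log2 fold change was -0.33 (SE 0.28, 95% interval -0.98 to 0.32, adjusted p = 0.823 by limma), and leaving out any single library gave -0.39 to -0.21, the latter without AVP replicate 3. Ltb4r1 (gene identifier 16995) was at 0.289, 13.5 and 2.87 FPKM in the control libraries and at 5.92, 14.0 and 1.50 FPKM with AVP. Its libraries spread so widely inside each group that the 95% interval of the log2 fold change ran from -1.71 to 3.05 around 0.67.

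**Figure D3:**
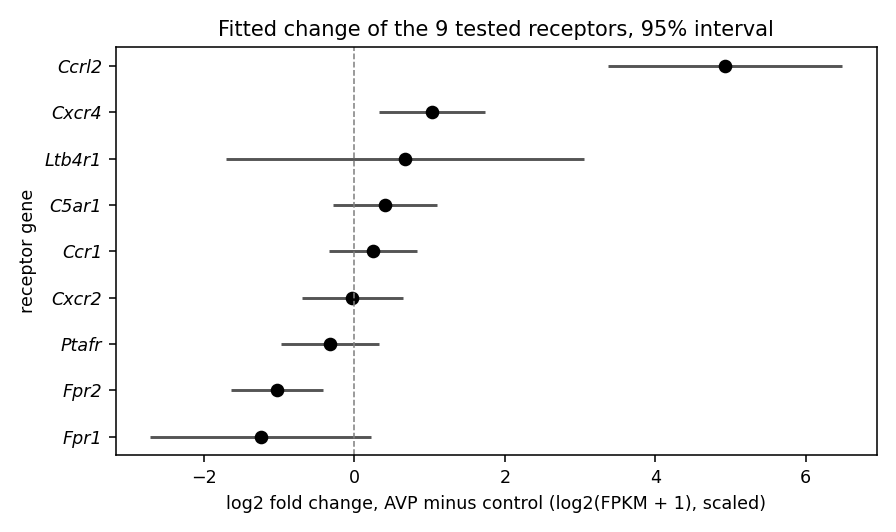
Fitted log2 fold change of the 9 tested receptors, AVP minus control (horizontal axis, on the scaled log2(FPKM + 1) scale), with the 95% interval from limma as a bar and 0 as a dashed line. The intervals of Ccrl2, Cxcr4 and Fpr2 lie to one side of 0, before any adjustment for the 8523 genes tested.

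In controls the receptors ran, by mean level, from Fpr2 (164 FPKM) through Ccr1 (159), Cxcr2 (134), C5ar1 (104), Ptafr (63.4), Fpr1 (57.6), Cxcr4 (29.9), Ccrl2 (11.0) and Ltb4r1 (5.55) to C3ar1 (1.15 FPKM). Neighbours in that order overlapped in their libraries, except that C5ar1 was separate from Ptafr and Cxcr4 from Ccrl2. After AVP the order of mean FPKM was Ccrl2 (242), Ccr1 (177), C5ar1 (133), Cxcr2 (123), Fpr2 (76.3), Cxcr4 (58.3), Ptafr (47.5), Fpr1 (27.0), Ltb4r1 (7.13) and C3ar1 (0). Here the separate neighbours were Cxcr2 above Fpr2 and Ltb4r1 above C3ar1. Fpr2 thus moved from rank 1 or 2 in each control library to rank 5 in each AVP library. Libraries of a group also differed in the receptors as a set: of the 9 receptors above 0 throughout, 8 were highest in AVP replicate 2 among the AVP libraries (6 after scaling of libraries), and 5 were highest in control replicate 3 among controls.

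Receptor pairs were also compared inside each library, as log2 ratios of (FPKM + 1) of the deposited values. There were 4 pairs. The log2 ratio of Cxcr2 over Cxcr4 was 2.62, 1.38 and 2.32 in controls and 1.10, 1.35 and 0.70 after AVP, all AVP values lying below all controls, with control replicate 2 close to AVP replicate 2. The difference of means was -1.06 (SE 0.42), with p = 0.1 by a two-sided exact permutation test (0.2 adjusted over the 4 pairs), and 0.1 is the smallest p this design can reach. The log2 ratio of Ccrl2 over Ccr1 was -5.22, -4.57 and -2.95 in controls and 0.82, 0.42 and 0.10 after AVP, with the same exact p of 0.1 (0.2 adjusted). Ccrl2 was thus below Ccr1 in every control and above it in every AVP library.

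The log2 ratio of Fpr1 over Fpr2 was -2.11, -1.46 and -1.15 in controls and -2.87, -0.97 and -1.52 after AVP. These overlapped (difference of means -0.21, SE 0.63, exact permutation p = 0.8, also 0.8 adjusted), so a different change of these neighbouring genes was not detectable. Without AVP replicate 1 the difference was 0.33. The remaining pair, C5ar1 over C3ar1, is not given, because its denominator is 0 in 5 libraries and the ratio is then set by the pseudocount.

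**Figure D4:**
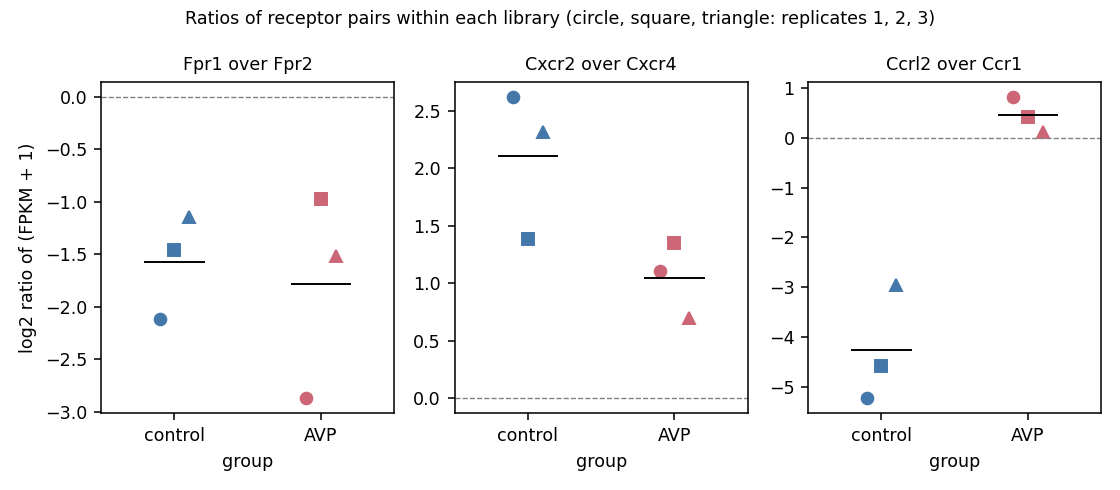
Log2 ratio of (FPKM + 1) of 3 receptor pairs in each library (vertical axes, each with its own range), with controls in blue, AVP in red, a marker shape for each replicate number and a black line at the group mean. Cxcr2 over Cxcr4 lies lower and Ccrl2 over Ccr1 higher in all 3 AVP libraries, and Fpr1 over Fpr2 overlaps.

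The regions around the start sites of the 4 receptors with the largest fitted differences are shown next, since transcription starts there. RefSeq windows of 300 bases in build GRCm38.p6, from 250 bases before to 50 bases after the start, were found for all 10 receptors, with 3 start sites for Ccrl2. Each is printed 5′ to 3′ on the strand of the gene, with motif matches in capitals. Positions count from 0 at the first transcribed base. Both strands were searched for AP-1 (TGANTCA), C/EBP (TTNNGNAA), PU.1 (GAGGAAG) and the NF-kB consensus, factors of myeloid and inflammatory transcription. The windows are chr9:111057469-111057768 (minus strand, the most upstream Ccrl2 start), chr1:128592250-128592549 (minus strand, Cxcr4), chr17:17887574-17887873 (plus strand, Fpr2) and chr17:17883890-17884189 (minus strand, Fpr1).
Ccrl2: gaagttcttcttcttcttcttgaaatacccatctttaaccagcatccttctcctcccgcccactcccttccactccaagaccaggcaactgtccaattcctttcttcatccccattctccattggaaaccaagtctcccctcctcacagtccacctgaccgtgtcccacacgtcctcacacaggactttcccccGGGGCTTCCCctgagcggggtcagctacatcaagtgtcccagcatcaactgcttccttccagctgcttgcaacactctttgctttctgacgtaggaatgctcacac
Cxcr4: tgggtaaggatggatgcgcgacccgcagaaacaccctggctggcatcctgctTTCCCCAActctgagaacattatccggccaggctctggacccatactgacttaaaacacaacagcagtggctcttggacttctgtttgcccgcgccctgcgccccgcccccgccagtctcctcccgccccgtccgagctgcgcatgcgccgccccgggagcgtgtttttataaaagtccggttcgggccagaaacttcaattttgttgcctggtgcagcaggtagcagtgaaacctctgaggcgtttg
Fpr2: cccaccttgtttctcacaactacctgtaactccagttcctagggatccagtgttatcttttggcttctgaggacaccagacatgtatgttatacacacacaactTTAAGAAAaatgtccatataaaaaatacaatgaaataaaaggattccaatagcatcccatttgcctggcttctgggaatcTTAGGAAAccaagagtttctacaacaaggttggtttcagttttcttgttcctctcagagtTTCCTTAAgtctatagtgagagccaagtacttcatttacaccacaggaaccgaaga
Fpr1: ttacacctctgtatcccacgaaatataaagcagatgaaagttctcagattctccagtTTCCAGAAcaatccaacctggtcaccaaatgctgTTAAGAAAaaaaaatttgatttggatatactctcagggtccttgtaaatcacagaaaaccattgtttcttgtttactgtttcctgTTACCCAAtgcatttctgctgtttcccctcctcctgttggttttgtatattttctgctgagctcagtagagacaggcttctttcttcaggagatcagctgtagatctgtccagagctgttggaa
The capitals in Ccrl2 are an NF-kB consensus match, GGGGCTTCCC, at -56 to -47. Those in the other windows are C/EBP matches, at -198 to -191 in Cxcr4, at -146 to -139, -66 to -59 and -6 to 1 in Fpr2, and at -193 to -186, -159 to -152 and -74 to -67 in Fpr1.

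Among the 12 windows of the 10 receptors, the upstream Ccrl2 window held the NF-kB match and the rest held none. Such a match occurred in 5.8% of 32851 windows in the RefSeq table, and a C/EBP match in 40.7%, so the latter is common. The AP-1 motif (7.81% of all windows) was found in C3ar1 and the PU.1 motif (13.6%) in Ltb4r1, while the Cxcr2 and Ptafr windows held none of the 4. A match describes these letters only; no binding was measured.

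Genes whose profile over the 6 libraries was nearest to a receptor were sought among 4561 annotated genes with a mean of at least 5 FPKM, by the root mean square difference of log2 values centred on each gene's mean. The nearest to Ccrl2 were Cxcl2 (difference 0.70), a chemokine that binds CXCR2, Plk2 (0.77), a stress-induced kinase, and Cxcl3 (0.91), another CXCR2 ligand. These differences were larger than those of the genes named below for Cxcr4, Fpr2 and Ptafr. Centring was over both groups, so a shared difference between the groups counts as likeness. Plk2 averaged 2.34 FPKM in controls and Cxcl3 was listed at 0 there. Plk2 and Cxcl3 thus met the mean of 5 FPKM only through the AVP libraries. Plk2 was at 0, 1.34 and 5.69 FPKM in the control libraries and at 27.5, 23.9 and 31.8 FPKM with AVP. Cxcl2 was at 9.67, 28.8 and 135 FPKM in the controls and at 2098, 2019 and 2611 FPKM with AVP. Like Ccrl2, both were highest among the controls in replicate 3. Among the AVP libraries both were also highest in replicate 3, where Ccrl2 was lowest. Nearest to Cxcr4 were Tagln2 (0.11), which encodes an actin-binding protein, Themis2 (0.15) and Hhex (0.18), a homeobox transcription factor. Nearest to Fpr2 were Sharpin (0.16), Trim30d (0.17) and Gng10 (0.18), a G protein gamma subunit. Nearest to Ptafr were Cmpk1 (0.06), Arhgdib (0.07) and Dynlt1a (0.09). Likeness over 6 libraries is a description of these libraries.

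Along the rest of the pathway, 0 genes passed over all genes tested in any of the 4 lists, beside 0% of all genes. At an unadjusted p under 0.05, 4.72% of all genes had higher and 3.75% lower levels. Of 27 ligand and lipid-synthesis genes, 18 were tested, of which 4 had higher and 0 lower levels when p is left unadjusted, under 0.05. These were Cxcl2, with a log2 fold change of 6.07 (SE 0.78), Cxcl3, and the CC chemokines Ccl3 and Ccl4, named after their values were seen. Cxcl3 had 27.5, 57.6 and 29.7 FPKM with AVP, and since the control libraries all list it at 0, no fold is given. It entered the test through the AVP libraries alone. Ccl3, a ligand of CCR1, was at 109, 188 and 493 FPKM in the control libraries and at 1327, 1287 and 884 FPKM with AVP. Ccl4 was at 21.7, 150 and 300 FPKM in the control libraries and at 1154, 322 and 659 FPKM with AVP. The ligand genes with higher levels included some of those for CXCR2 and CCR1, receptors whose own transcripts overlapped between the groups. The other ligand genes tested overlapped, among them Ppbp (log2 fold change -1.56, SE 1.45), Ccl6 (0.38, SE 0.20) and Ccl9 (0.04, SE 0.99). The CXCR4 ligand gene Cxcl12 and the chemerin gene Rarres2 were listed at 0 in all 6 libraries.

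Of 33 other chemoattractant receptors 10 were tested, 0 with an unadjusted p under 0.05, and 14 were at 0 in all libraries. The 2 with the smallest p were Gpr35 (log2 fold change 0.74, SE 0.59) and C5ar2 (0.52, SE 0.48), a C5a receptor that does not couple to G proteins. C5ar2 was at 14.5, 14.7 and 18.6 FPKM in the control libraries and at 33.5, 24.6 and 12.4 FPKM with AVP. The median log2 fold change of the 10 was -0.07.

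Of 28 genes for G proteins, phosphoinositide 3-kinase and Rac signalling, 25 were tested, of which 0 had higher and 1 lower levels by the same count, with a median of 0.03. Over all genes the shares were 4.72% higher and 3.75% lower. The gene that was lower was Gng10, at 129, 197 and 168 FPKM in the control libraries and at 73.0, 134 and 84.7 FPKM with AVP, where AVP replicate 2 overlapped the controls. Next by p was Pik3r6, a regulatory subunit of the phosphoinositide 3-kinase used by these receptors, with a log2 fold change of -1.16 (SE 0.70). Of 20 desensitisation genes found in the files 17 were tested, and 1 was higher and 1 lower, beside those same shares, with a median of 0.08. Rgs1, which encodes a protein that speeds the switching off of G proteins, was at 0.161, 13.2 and 0.469 FPKM in the control libraries. It was at 52.7, 13.3 and 22.1 FPKM with AVP, with control replicate 2 close to AVP replicate 2. The AVP libraries alone were enough for Rgs1 to enter the test, and only control replicate 2 reached 1 FPKM among controls. Rgs2, of the same family and far more abundant, was at 684, 533 and 746 FPKM in the control libraries and at 338, 501 and 429 FPKM with AVP. Its log2 fold change was -0.55 (SE 0.21).

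**Figure D5:**
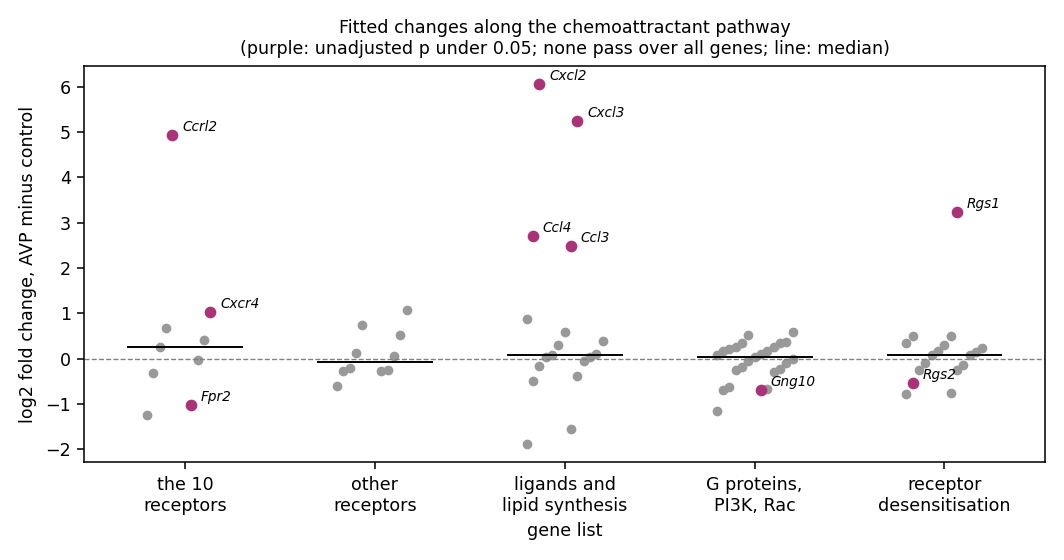
Fitted log2 fold change (vertical axis, AVP minus control) of every tested gene in 5 lists: the 10 receptors (9 tested), other receptors, ligands with lipid-synthesis enzymes, G protein effectors and desensitisation factors. Purple points have an unadjusted p under 0.05 and black lines are medians, which lie between -0.07 and 0.25. The height of the Cxcl3 point is set by the pseudocount, since its control libraries are at 0.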

How the data were processed

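RNA of flow-sorted mouse blood neutrophils (3 control and 3 AVP samples, grouped from the labels) was sequenced from TruSeq libraries, per the labels' protocols. The submitters' processing notes name the mm10 build, HISAT2 2.1, featureCounts 1.6.4, DESeq2 2.11.40.6, cutadapt 1.16.5 and bcl2fastq 2.19, with no role or annotation for the authors' steps. The deposited values are taken to be FPKM, inferred from the values, since the files do not name their unit; they carry no counts, so depth is an estimate.

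A trimmed mean of log ratios (30% of ratios, 5% of levels, each end) scaled the libraries. Genes reaching 1 FPKM in 3 or more libraries were tested on log2(FPKM + 1), where folds of low genes are understated, with limma 3.58.1 in R 4.3.3 (intensity trend, Benjamini-Hochberg over all genes, threshold 0.05); the procedure was tested on simulated data. Printed FPKM, ranges and overlaps are of deposited values; ± is the SD. Ratios were tested by exact permutation. Python 3.11.15, pandas 2.3.3, numpy 2.4.6 and matplotlib 3.10.9 were used. Identifiers, coordinates and start-site windows come from RefSeq (GRCm38.p6, the assembly of mm10). All 10 receptors are named. From each pathway list, genes past the threshold are named or, with none, the 2 with the smallest p. For receptors whose groups do not overlap, the 3 genes nearest in profile are named, predicted genes and pseudogenes left out. The receptors and lists were chosen with earlier results of these data known. Alternatives were other scalings, filters, pseudocounts, variance moderation, a replicate block, removal of haemoglobin, immunoglobulin and mitochondrial genes, and leaving out each library.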

Additional observations from a re-analysis of the deposited data

How the results depend on the processing

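None of the 9 tested receptors, and no gene of 8523, passed in the main fit. When genes had to reach 10 FPKM in 3 or more libraries, 11 genes passed, including 1 receptor, with a pseudocount of 5 there were 3, including 1 receptor, and without the intensity trend 1 gene and 0 receptors. With each library left out in turn, 0 to 4 genes and 0 to 1 receptors passed. The receptor was Ccrl2 each time. Its adjusted p by limma was 0.0301 with the 10 FPKM filter, 0.0466 with the pseudocount of 5 and 0.00577 without control replicate 3. Over its 16 alternatives the adjusted p ranged from 0.00577 to 0.609. The AVP libraries alone admitted Ccrl2 to the 10 FPKM filter, which left 3675 genes tested. Its unadjusted p by limma hardly moved there (7.35e-05, beside 8.02e-05 in the main fit), so that pass is not separate support. Ccrl2, Cxcr4, Ccr1 and C5ar1 stayed above 0, and Fpr1, Fpr2 and Ptafr below 0, in every alternative run. Signs turned with a library left out for Cxcr2 (-0.24 to 0.15), Ltb4r1 (-0.17 to 1.57) and the log2 ratio of Fpr1 over Fpr2 (-0.62 to 0.33). Deviations of same-numbered libraries from their group means had correlations of 0.02, -0.01 and -0.04. With 3 libraries in a group this cannot settle whether they were paired, and the labels do not say. With a replicate block 0 genes and 0 receptors passed, the unadjusted p was under 0.05 for 357 genes with higher and 313 with lower levels, and Ccrl2 had an adjusted p of 0.295. Ltb4r1 has no value under the 10 FPKM filter, and the ratio of C5ar1 over C3ar1 none without a pseudocount. Low genes such as Ltb4r1 and Rgs1 varied widely between libraries of a group, and the cause was not tested.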
